A study of Schizosaccharomyces pombe with 15 samples.

Results

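Scr1 is a zinc finger transcription factor of fission yeast that holds down genes for the use of other carbon sources when glucose is at hand. The 157 regions described here had a called peak of tagged Scr1 in molasses in both Wilmar-P and laboratory S. pombe. No peak was called there in Wilmar-P in glucose. They are 157 of the 851 regions of Wilmar-P in molasses that had a peak in both replicates, or 18.4% of them. No untagged strain was among the 15 samples, so binding of Scr1 was not tested beyond the peak calls. A limit on agreement between replicates, given at the end, was met in both strains by 45 of the 157. The members were selected on the measured peaks themselves. A region had to overlap a peak of each of the 2 laboratory molasses lists and no peak of either Wilmar-P glucose list by as little as 1 bp. Presence in molasses and absence in glucose are therefore what the rule used, and nothing is read from them. Of the other regions, 290 had a glucose peak, 382 had neither a glucose nor a laboratory peak, and 22 had a peak in 1 laboratory list only.

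The series lists 15 samples, of which 6 chromatin immunoprecipitation (ChIP-seq) peak lists were used, 2 independent biological replicates for each of 3 groups. The groups were Wilmar-P Scr1-TAP (h90 scr1::TAP-KanMX6) in molasses medium, laboratory S. pombe Scr1-TAP in molasses medium and Wilmar-P Scr1-TAP in 3% glucose. The laboratory strain is labelled 972h- Scr1-TAP, whereas its genotype label reads h+ with ura4, leu1 and ade6 alleles beside scr1::TAP-KanMX6. Wilmar-P is an industrial isolate used to ferment sugar cane molasses, which supplies sucrose with glucose and fructose. Scr1 carried a tandem affinity tag at its own locus in both strains and was precipitated with an antibody to Protein A, so that all groups share the tag, and both strains were read against the laboratory reference genome. No laboratory glucose list was used, so the absence of a glucose peak refers to Wilmar-P alone.

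As background, Scr1 belongs to the same family as budding yeast Mig1, whose zinc fingers contact a GC-rich core written SYGGGG (spelled CCGGGG in its first form, with CTGGGG as the next, then the form GCGGGG and last the form GTGGGG). Repressors of this family usually act from sites upstream of the genes they control. A ChIP peak is summarised by its summit, the base with the highest pile-up, and by its fold enrichment over input there.

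The regions fell into 2 kinds by what lay under the summit of Wilmar-P replicate 1. In 113 regions the summit was in a coding exon, and in 44 it was not. Of these 44, 20 summits lay in annotated noncoding RNA genes, 12 between genes, 10 in an untranslated region (UTR) or intron and 2 in a tRNA gene. All 113 coding-summit regions also had both laboratory summits in coding exons. Of the 44 others, 31 had neither laboratory summit in a coding exon. The split into these kinds was made after the values had been seen.

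Regions were ranked by −log10 p within each of the 4 molasses lists, with each rank taken as a percentage of the list's length. By the mean of these percentages, 12 of the best 15 regions had a summit outside coding exons. The mean rested more on Wilmar-P, with strain means of 6.91% to 24.2% there and 1.16% to 7.65% in laboratory cells. High laboratory ranks did not by themselves place a region among the 15, as with pop7 (noncoding, 84 and 75) and ubi4 (coding, 88 and 92). Windows of 201 bp centred on the Wilmar-P replicate 1 summit are printed for 7 of these 15, which carry the sequence words discussed below or lie upstream of a transcription factor gene, and for 1 region inside a coding exon. They are given on the plus strand of the RefSeq sequence (ASM294v3), 5′ to 3′. Capitals mark the SYGGGG forms, the word TGACGT, the word CCAAT and the word CACGTG on either strand. All were searched on both strands, and words that share letters, such as TGACGT with the word CACGTG, may overlap.
mbx2, chrII:3625410-3625610: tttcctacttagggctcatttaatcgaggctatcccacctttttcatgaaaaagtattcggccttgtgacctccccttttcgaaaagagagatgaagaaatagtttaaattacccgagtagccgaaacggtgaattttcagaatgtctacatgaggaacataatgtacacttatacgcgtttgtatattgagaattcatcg
aah1, chrIII:72640-72840: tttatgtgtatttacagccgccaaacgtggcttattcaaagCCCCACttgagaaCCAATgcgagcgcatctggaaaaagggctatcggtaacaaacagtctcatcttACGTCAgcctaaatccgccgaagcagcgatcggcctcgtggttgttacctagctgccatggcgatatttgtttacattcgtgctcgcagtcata
mae2, chrIII:277284-277484: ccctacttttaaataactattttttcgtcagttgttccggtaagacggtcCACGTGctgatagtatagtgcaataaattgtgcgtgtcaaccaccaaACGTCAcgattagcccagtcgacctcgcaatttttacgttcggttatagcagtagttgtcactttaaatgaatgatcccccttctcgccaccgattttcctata
SPBC56F2.05C, chrII:4109297-4109497: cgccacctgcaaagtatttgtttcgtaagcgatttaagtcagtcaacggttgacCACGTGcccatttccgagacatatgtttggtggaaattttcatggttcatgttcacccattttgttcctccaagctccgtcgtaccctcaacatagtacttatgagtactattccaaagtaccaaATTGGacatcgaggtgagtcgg
rad24, chrI:3383865-3384065: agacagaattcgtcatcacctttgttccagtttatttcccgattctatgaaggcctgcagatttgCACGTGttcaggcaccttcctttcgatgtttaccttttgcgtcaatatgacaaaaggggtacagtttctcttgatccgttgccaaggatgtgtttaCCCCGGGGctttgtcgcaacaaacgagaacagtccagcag
fep1, chrI:440916-441116: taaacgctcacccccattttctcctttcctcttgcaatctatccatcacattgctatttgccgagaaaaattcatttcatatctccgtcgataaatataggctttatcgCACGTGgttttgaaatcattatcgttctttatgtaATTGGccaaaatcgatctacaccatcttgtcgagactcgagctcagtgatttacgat
SPAC9E9.02, chrI:4436742-4436942: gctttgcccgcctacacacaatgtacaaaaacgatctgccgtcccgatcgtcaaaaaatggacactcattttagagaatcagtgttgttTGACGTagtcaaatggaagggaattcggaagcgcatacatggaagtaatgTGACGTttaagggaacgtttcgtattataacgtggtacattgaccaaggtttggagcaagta
ubi4 (coding), chrII:1044810-1045010: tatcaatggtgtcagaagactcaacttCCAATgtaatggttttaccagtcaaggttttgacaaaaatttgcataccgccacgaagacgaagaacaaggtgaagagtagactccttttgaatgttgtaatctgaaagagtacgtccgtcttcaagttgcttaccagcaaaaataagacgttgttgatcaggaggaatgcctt

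The region ranked first, chrIII:1868221-1868837, lay inside meu10, which encodes a glycosylphosphatidylinositol (GPI)-anchored protein needed for the spore wall. Its fold enrichment was 18.1 and 14.3 in the Wilmar-P replicates and 5.42 and 4.65 in the laboratory replicates. All 4 summits fell within 13 bp of each other, inside a coding exon. The region ranked second, chrIII:969734-970438, was in a noncoding RNA gene 2759 bp upstream of SPCC1795.12C, an uncharacterised gene. It reached 28.0 and 22.7 in Wilmar-P and 4.12 and 3.60 in the laboratory strain.

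The next 2 regions stood upstream of mbx2, which encodes a MADS-box transcription factor that promotes flocculation, the clumping of cells through surface glycoproteins. The nearer summit was 1129 bp upstream of the annotated start and had fold enrichments of 25.5 and 18.3 in Wilmar-P and 5.03 and 4.24 in laboratory cells. The farther summit was 3064 bp upstream, with 18.1 and 14.3 in Wilmar-P and 5.74 and 4.79 in laboratory cells. The 4 lists gave the pair ranks between 79 and 104, so that both stood high in every molasses list. The printed window of the nearer mbx2 summit holds none of the 4 capitalised words.

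Genes of metabolism and the cell surface followed. The aah1 region, 136 bp upstream of a gene for a GPI-anchored glycosyl hydrolase, had 19.7 and 18.1 in Wilmar-P and 3.04 and 3.14 in laboratory cells. The mae2 region, 122 bp upstream of the malic enzyme gene, had 13.7 and 10.9 in Wilmar-P and 7.96 and 6.54 in laboratory cells, the highest laboratory values among the regions. Its laboratory summits were 169 and 177 bp from the Wilmar-P summit, on the side away from the gene. The region named for plb2, a phospholipase gene, had 14.3 and 11.5 in Wilmar-P and 3.13 and 2.48 in laboratory cells, and its summit was in the coding exon of the neighbouring SPAC1786.04.

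Regulatory genes were also near several of the 15. A summit 572 bp upstream of SPBC56F2.05C, annotated as a transcription factor, had 12.1 and 9.72 in Wilmar-P and 3.35 and 2.73 in laboratory cells. The region 262 bp upstream of rad24, which encodes a 14-3-3 protein of the DNA damage checkpoint, had 12.0 and 8.94 in Wilmar-P and 3.24 and 2.98 in laboratory cells. The fep1 gene encodes the GATA-type repressor of iron uptake, and a summit lay 1205 bp upstream of it. It had 9.91 and 7.81 in Wilmar-P and 2.88 and 2.68 in laboratory cells, and a weaker region followed 2699 bp upstream, inside mre11.

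The remaining 5 of the 15 were named for SPCC13B11.02C, mti2, puf5, fhn1 and SPAC9E9.02. They encode 2 uncharacterised proteins, a mitochondrial translation initiation factor, a pumilio RNA-binding protein and an eisosome protein. In these 5 the fold enrichment was 7.79 to 11.1 and 5.42 to 8.61 in the Wilmar-P replicates, against 2.11 to 3.92 and 2.27 to 3.58 in the laboratory replicates. In 13 of the 15 both laboratory summits were within 100 bp of the Wilmar-P summit, the exceptions being SPCC1795.12C and mae2.

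Across all members the kinds differed in height, as the plot of fold enrichment by list shows. The noncoding-summit regions had median fold enrichments of 4.76 and 3.78 in Wilmar-P and 2.15 and 2.19 in laboratory cells. The coding-summit regions had medians of 2.08 and 1.89 in Wilmar-P and 1.88 and 1.92 in laboratory cells. This order of the kinds was not particular to the shared regions. In Wilmar-P, regions with a glucose peak had medians of 14.9 and 11.4 (noncoding summits) and 2.78 and 2.45 (coding summits). Those of Wilmar-P alone had 3.96 and 3.20 (noncoding summits) and 2.70 and 2.28 (coding summits). A fold enrichment of at least 4 in both Wilmar-P replicates was reached by 21 of the 44 and by 4 of the 113. Both Wilmar-P values exceeded both laboratory values in 35 of the 44 noncoding-summit regions and in 40 of the 113 coding-summit regions. The opposite held in 4 and in 28. Each fold enrichment is relative to its own library and input, so these counts compare lists and not amounts of bound Scr1.

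**Figure D1:**
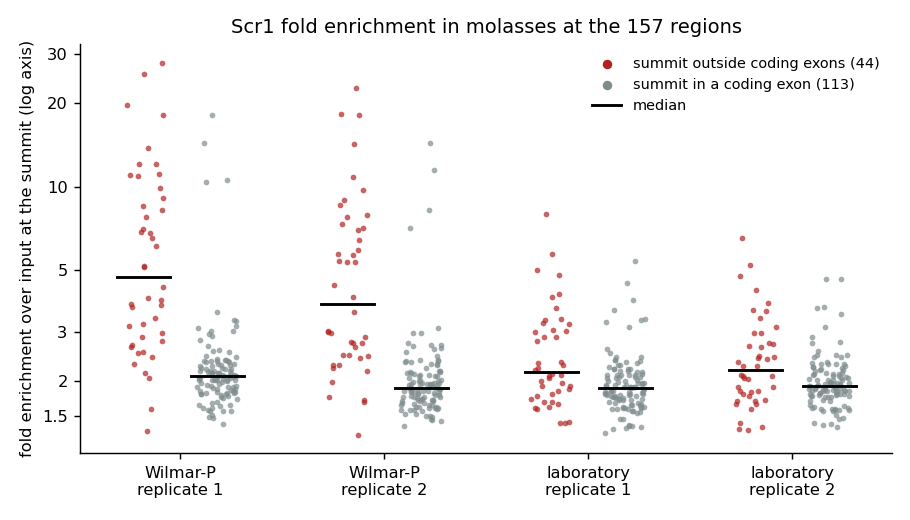
Fold enrichment over input (log axis) of the 157 regions in the 2 Wilmar-P and the 2 laboratory molasses lists. Each point is 1 region, red where the summit was outside coding exons and grey where it was inside, and black lines are medians. The red points reach 28.0 in Wilmar-P replicate 1, whereas most grey points lie near 2 in all 4 lists.

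The lists of the 2 strains differ in length, with 961 and 1073 peaks in Wilmar-P and 4239 and 4479 in laboratory cells, so a place in a list depends on the measure used. The coding-summit regions had median ranks of 825 and 818 in Wilmar-P and 927 and 1146 in laboratory cells. As a percentage of list length the same regions stood at 85.8% and 76.2% in Wilmar-P and at 21.9% and 25.6% in laboratory cells. By rank, both Wilmar-P values were ahead of both laboratory values in 48 of the 113, the opposite held in 31, and 34 overlapped. The noncoding-summit regions had median ranks of 392 and 407 in Wilmar-P and 303.5 and 366 in laboratory cells, and these counts were 19, 17 and 8 of the 44. No strain is read as the stronger one from these places.

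**Figure D2:**
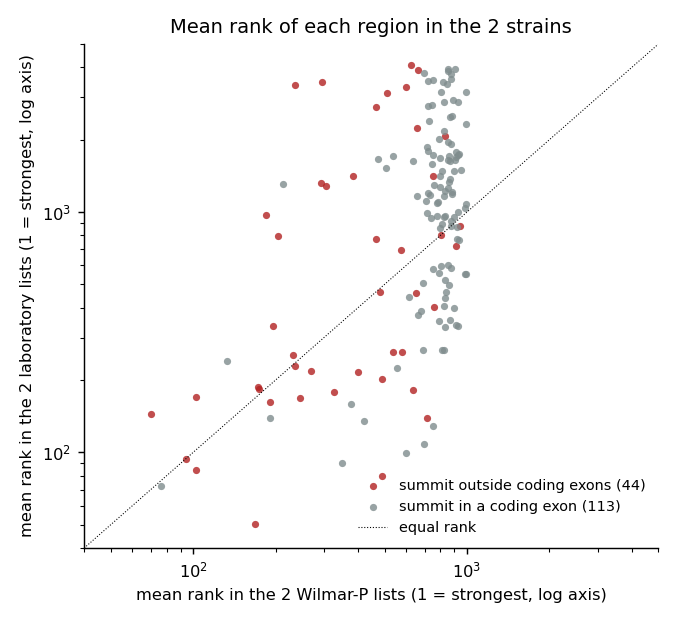
Mean rank of each region by −log10 p in the 2 Wilmar-P lists (x axis) and in the 2 laboratory lists (y axis), on log axes with 1 for the strongest peak. Red points are noncoding-summit and grey points coding-summit regions, and the dotted line marks equal rank. Most grey points stand near the end of the Wilmar-P lists of 961 and 1073 peaks and lie on both sides of the line.

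Among the 63 regions with close summits, the 5 with the smallest percentage of list length in laboratory cells relative to Wilmar-P were all in coding exons. They were in SPBC8D2.18C (adenosylhomocysteinase), shm1 (serine hydroxymethyltransferase), rps7 and rpl1702 (ribosomal proteins) and eca39 (branched-chain amino acid aminotransferase). The SPBC8D2.18C region ranked 911 and 919 in Wilmar-P and 373 and 302 in laboratory cells, with fold enrichments of 1.74 and 1.65 in Wilmar-P and 2.11 and 2.30 in laboratory cells. By rank itself the strains overlapped for shm1, with 935 and 931 in Wilmar-P and 1021 and 502 in laboratory cells. They also overlapped for rps7, with 932 and 1035 in Wilmar-P and 440 and 1644 in laboratory cells.

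The 5 regions at the other end of that measure were all outside coding exons. The first was 152 bp upstream of ctt1, the catalase gene, and the others were named for frp1, SPAC750.08C, agl1 and ppc1. The ctt1 region had fold enrichments of 8.26 and 7.00 in Wilmar-P, at ranks 245 and 227. In laboratory cells it had 1.59 and 1.34, at ranks 2328 and 4403. The ppc1 summit was in a tRNA gene far from the ppc1 start, its window has copies elsewhere in the genome, and the SPAC750.08C window near the end of chromosome I has such copies too.

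The distance between the summits of the 2 strains was also measured. The rule did not use it directly, but it required overlapping peaks, which limits the distance (median region width 554 bp). The share of close summits that overlap alone would give was not tested, so agreement beyond the rule is not read from it. Both laboratory summits were within 100 bp of the Wilmar-P summit in 63 of the 157 regions, or 40.1% (95% Wilson interval 32.8 to 47.9). The share was 56.8% of the noncoding-summit regions (42.2 to 70.3) and 33.6% of the coding-summit regions (25.6 to 42.7). Of the 290 regions with a glucose peak it was 59.3% (172 regions), counting those without a laboratory peak as not close. In the noncoding kind the median distance between replicates was 13.5 bp in Wilmar-P and 15.5 bp in laboratory cells, and between the strains it was 57.5 and 32.5 bp from Wilmar-P replicate 1 and 25 and 20.5 bp from Wilmar-P replicate 2. In the coding kind the replicates were 69 bp apart in Wilmar-P and 60 bp apart in laboratory cells, and the strains were 133 and 122 bp apart from Wilmar-P replicate 1 and 125 and 138 bp from Wilmar-P replicate 2.

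**Figure D3:**
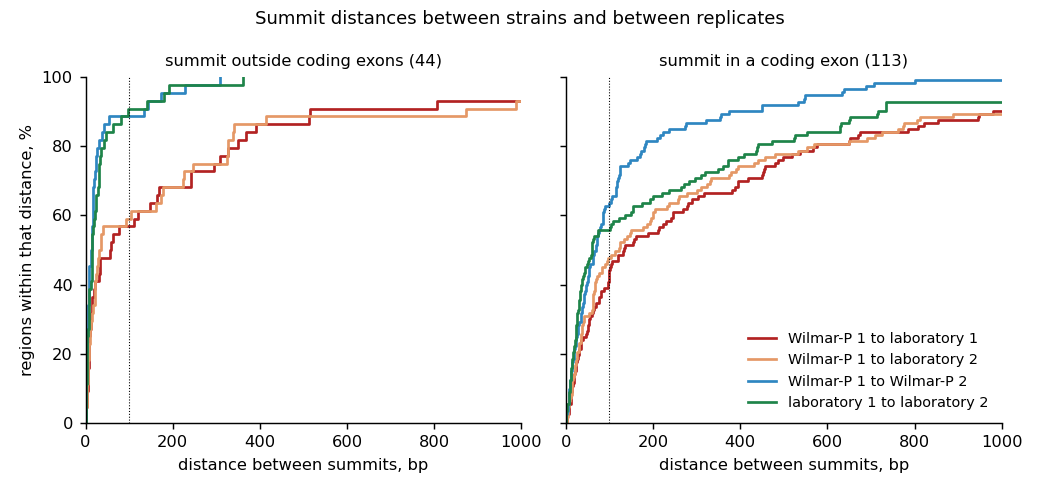
Share of regions (y axis) whose summits lay within a given distance in bp (x axis), for noncoding-summit regions (left) and coding-summit regions (right). Red and orange steps compare Wilmar-P replicate 1 with each laboratory replicate, blue and green steps compare the replicates within a strain, and the dotted line marks 100 bp. At 100 bp on the left the strain steps reach 56.8% and 59.1%, and the replicate steps 88.6% (Wilmar-P) and 90.9% (laboratory).

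For −log10 p across the noncoding-summit regions, Spearman's rho was 0.98 between the Wilmar-P replicates and 0.94 between the laboratory replicates. Between Wilmar-P replicate 1 and the laboratory replicates it was 0.50 and 0.43, and for Wilmar-P replicate 2 it was 0.51 and 0.44. Across the coding-summit regions it was 0.62 within each strain. Between the strains it was 0.17 and 0.05 for Wilmar-P replicate 1 and 0.34 and 0.24 for Wilmar-P replicate 2. Between the strains, regions with a glucose peak had values of 0.61 to 0.68 with noncoding summits and 0.52 to 0.71 with coding summits. The values of the shared regions describe 44 and 113 regions of the same 4 libraries, and all come with no test.

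Position relative to genes differed between the shared regions and the other Wilmar-P regions. The laboratory peaks that the rule required lay mostly in coding exons, as given below. A summit was called upstream if it was outside coding exons and no more than 1000 bp before an annotated protein-coding start. This held for 20 of the 157 shared regions (12.7%), against 159 of the 290 regions with a glucose peak (54.8%, Fisher's exact test, two-sided, adjusted p = 2.0e-19). Against the 382 regions of Wilmar-P in molasses alone, of which 230 were upstream (60.2%), the adjusted p was 3.6e-25 (Fisher's exact test). That class has no laboratory peak by definition, so this p-value reflects the rule as well as position. Summits in coding exons made up 72.0% of the shared regions (64.5 to 78.4), 19.3% of those with a glucose peak and 7.85% of those of Wilmar-P alone.

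**Figure D4:**
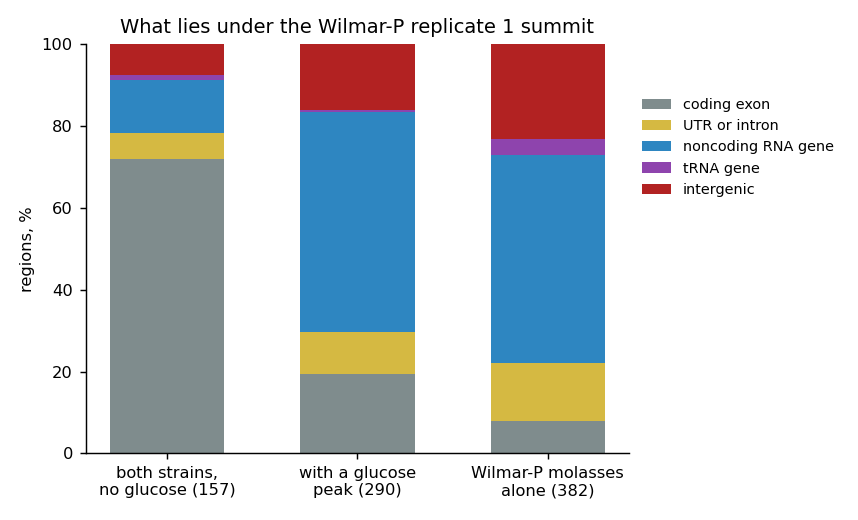
Share of regions (y axis, %) by what lay under the Wilmar-P replicate 1 summit, for the 157 shared molasses regions, the 290 regions with a glucose peak and the 382 regions of Wilmar-P in molasses alone. Grey marks coding exons, which make up 72.0% of the first bar, 19.3% of the second and 7.85% of the third.

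The tests treat regions as units and do not compare samples. Of the 3485 laboratory regions of both replicates, 90.7% had their summit in a coding exon. Peaks of both laboratory lists covered 24.3% of all coding sequence and 2.80% of the rest of the genome. The rule required such peaks, so it favoured coding summits by itself, and the size of this part was not tested. The regions of Wilmar-P alone had no laboratory peak by definition, so that comparison cannot tell gene position from the rule. Of the 290 regions with a glucose peak, 236 also had a peak in both laboratory lists. When only laboratory peaks with a fold enrichment of at least 2.5 were used, 23 regions met the rule, 8 with coding and 15 with noncoding summits. The upstream difference then missed the threshold, at −20.0 percentage points against regions with a glucose peak (Fisher's exact test, adjusted p = 0.16) and −12.5 against those of Wilmar-P alone (adjusted p = 0.29).

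The coding-summit regions lay in 103 protein-coding genes and 1 pseudogene, SPCC188.10C, and 8 of the genes held more than 1 summit. The median region covered 49.5% of the coding span. Summits lay in all parts of the span but leaned toward its 3′ end, with a median position of 59.4%. From 5′ to 3′, successive stretches of 25% of the span held 19, 23, 36 and 34. Cytosolic ribosomal protein genes were the largest family among them, with 21 of the 102 genes that had a codon index (20.6%). The share was 24.5% (13 of 53) for coding-summit genes of regions with a glucose peak and 12.9% (4 of 31) for those of Wilmar-P alone. It was 3.76% for the genes under laboratory summits and 2.68% for all protein-coding genes. The 21 regions had fold enrichments of 1.56 to 2.67 and 1.45 to 2.67 in Wilmar-P and 1.34 to 2.20 and 1.40 to 2.57 in laboratory cells.

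Translation factors were present as well, with 4 genes. They were eft201 and eft202, which both encode elongation factor 2, tif1, which encodes the helicase eIF4A, and SPAC29A4.02C, the gamma subunit of elongation factor 1. Amino acid and one-carbon metabolism gave 17 genes, among them gln1 (glutamine synthetase), gdh1 (glutamate dehydrogenase), leu2 and leu3 (leucine synthesis) and sam1 (S-adenosylmethionine synthetase). Transporters gave 12 genes, including pma1, the plasma membrane proton pump, amt1, an ammonium transporter, and bfr1 and pmd1, which encode drug efflux pumps. The pma1 region had 3.16 and 2.99 in Wilmar-P and 1.95 and 1.77 in laboratory cells. These groups, and the cell surface group that follows, were drawn up after the genes had been seen. Their share of all genes was not counted, so their counts are a description and no enrichment is read from them.

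Genes of the cell wall and cell surface numbered 11. The flocculation genes gsf2, pfl2, pfl3 and pfl5 stood among them, which act in the adhesion of cells to each other. The pfl2 region had 3.02 and 2.15 in Wilmar-P and 2.29 and 2.29 in laboratory cells, and the strains overlapped. The pfl3 region had 3.02 and 2.99 in Wilmar-P and 3.26 and 3.66 in laboratory cells. The pfl5 region had 2.27 and 2.39 in Wilmar-P and 3.36 and 3.49 in laboratory cells, with no overlap between the strains. In gsf2, 2 separate regions had 1.82 to 2.38 in Wilmar-P and 2.61 to 3.71 in laboratory cells. The windows of pfl3, pfl5 and gsf2 contain 50-base stretches found elsewhere in the genome.

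The codon use of the coding-summit genes was not part of the rule. A codon adaptation index was computed for each gene relative to the 137 cytosolic ribosomal protein genes, and genes with a high index are, as background, usually strongly expressed. Leaving out the ribosomal protein genes, the 81 others had a median index at the 93.8th percentile of all protein-coding genes (quartiles 83.3 and 96.2), and 48 of them were in the top 10%. The genes under laboratory summits in general had a median percentile of 59.2, and all genes without the ribosomal ones had 48.7. Genes with coding summits in regions with a glucose peak had 89.7 and those in regions of Wilmar-P alone 45.5. The index was added after the genes had been seen and was not tested, and the RNA of these genes was not analysed here.

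**Figure D5:**
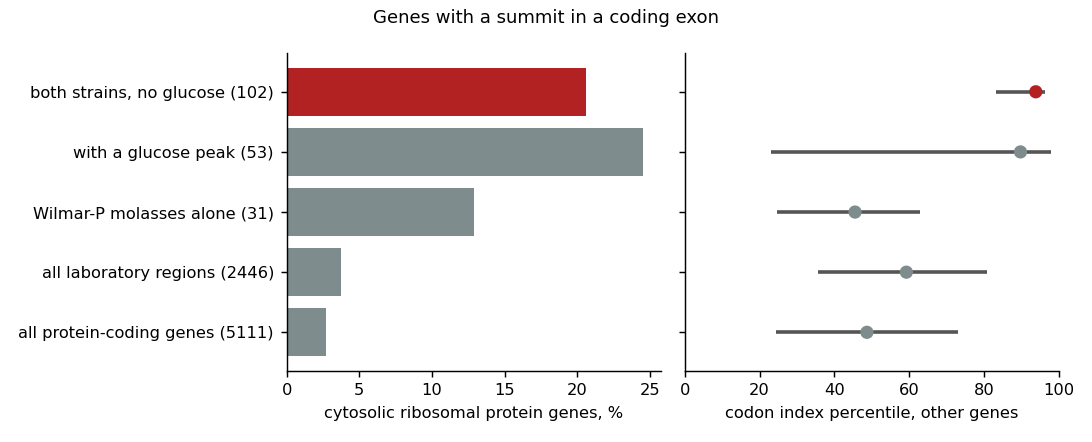
Genes with a summit in a coding exon. Left, the percentage that encode cytosolic ribosomal proteins. Right, the median percentile (point) and quartiles (line) of the codon adaptation index of the other genes. The numbers of genes stand in parentheses. The shared molasses regions (red) have 20.6% ribosomal protein genes and a median percentile of 93.8, against 24.5% and 89.7 for regions with a glucose peak and 2.68% and 48.7 over all protein-coding genes.

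The ubi4 gene, which encodes polyubiquitin, had 3.28 and 3.09 in Wilmar-P and 3.31 and 3.12 in laboratory cells, and the ranges of the strains overlapped. In hxk2, a hexokinase gene, the values were 2.28 and 2.28 in Wilmar-P and 1.87 and 1.91 in laboratory cells, with laboratory summits 29 and 24 bp from the Wilmar-P summit.

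Of 6 sequence words tested within 100 bp of the summit, SYGGGG, the word TGACGT, the word CCAAT and the word WGATAA were less frequent at the shared regions than at regions with a glucose peak. The regions with a glucose peak were also stronger, with median fold enrichments of 14.1 and 10.3 in Wilmar-P, against 2.21 and 2.02. Within regions above or below the middle of the Wilmar-P ranking, none of these differences passed, as given at the end. SYGGGG was within 100 bp of the summit in 12 of 157 shared regions (7.64%, 4.43 to 12.9), in 80 of 290 regions with a glucose peak (27.6%) and in 5.38% of the 62545 windows of that length in the genome. The first difference passed Fisher's exact test (adjusted p = 2.2e-06). Against the regions of Wilmar-P alone, with 13.1%, it did not (exact test, adjusted p = 0.13). TGACGT, the word of Atf1-type stress regulators, was in 10 of 157 (6.37%), against 21.0% of regions with a glucose peak (exact test, adjusted p = 0.00022), 8.90% of those of Wilmar-P alone (adjusted p = 0.47) and 3.22% of genome windows.

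CCAAT was in 37.6% of shared regions, against 50.7% of those with a glucose peak (exact test, adjusted p = 0.029), 31.4% of those of Wilmar-P alone (adjusted p = 0.29) and 37.4% of genome windows. The GATA word WGATAA (spelled AGATAA in its first form and then TGATAA) was in 14.6%, against 24.5% (exact test, adjusted p = 0.036), 28.3% (adjusted p = 0.0034) and 31.5% of genome windows. GAGGGG was in 3.82%, against 9.31% (exact test, adjusted p = 0.074), 2.62% (adjusted p = 0.58) and 1.96% of genome windows. The ribosomal promoter word CAGTCACA was in none of the 157, which allows a share of up to 2.39% (upper 95% Wilson limit), and in 2 and 5 regions of the other classes (exact tests, adjusted p = 0.58 and 0.44). The CCAAT call against regions with a glucose peak was lost in windows of 50 bp (exact test, adjusted p = 0.26) and 200 bp (adjusted p = 0.55) to either side and around the summits of Wilmar-P replicate 2 (adjusted p = 0.17). The WGATAA call was lost in the same settings (exact tests, adjusted p = 0.30, 0.32 and 0.098), and against Wilmar-P alone at 50 bp (adjusted p = 0.14). The GAGGGG difference passed at 200 bp (−8.80 points, exact test, adjusted p = 0.018) and around the replicate 2 summits (−6.76 points, adjusted p = 0.018). The CCAAT difference from Wilmar-P alone passed at 200 bp (11.8 points, exact test, adjusted p = 0.033). All 12 tests were two-sided Fisher's exact tests adjusted together. Summit windows had a median GC content of 45.8% in the coding-summit regions and 41.3% in the others, against 36.3% over the genome, and its part in these shares was not tested.

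Between the 2 kinds of region the shares are given with no test. SYGGGG was in 8 of the 44 noncoding-summit regions (18.2%) and in 4 of the 113 coding-summit regions (3.54%). It was in 4.01% of genome windows with a noncoding centre and 6.40% of those with a coding centre. Noncoding-summit regions with a glucose peak had it in 27.8%, and those of Wilmar-P alone in 12.8%. With summits outside coding exons alone, the difference from regions with a glucose peak was −9.60 percentage points for SYGGGG (exact test, adjusted p = 0.52), so the call did not hold. Nor did it for TGACGT (−12.6 points, exact test, adjusted p = 0.45), CCAAT (−20.0 points, adjusted p = 0.24) or WGATAA (−8.74 points, adjusted p = 0.52, and −9.94 points against Wilmar-P alone, adjusted p = 0.52). These rest on 44 of the 157 regions. The noncoding-summit regions with SYGGGG were named for aah1, rad24, SPAC57A7.05, pop7, esc1, mtl2, tlh2 and hht2. In the printed rad24 window, CCGGGG occurs on both strands in a single run of 8 bases. In the aah1 window, SYGGGG and CCAAT stand on the left of the summit and TGACGT 10 bp to its right.

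The word CACGTG, an E-box of the kind bound by basic helix-loop-helix proteins, was noticed in the printed windows. It occurs in mae2, SPBC56F2.05C, rad24 and fep1 as printed, in mti2, and in the region of bdf1, which encodes a bromodomain protein. These 6 are 13.6% of the 44 noncoding-summit regions. The share was 2.99% and 4.55% in the noncoding-summit regions with a glucose peak and of Wilmar-P alone, 1.77% in the coding-summit regions and 1.13% of all genome windows. Over all 2080 words of 6 letters, TGGACA stood out most from noncoding genome windows, with 12 of 44 regions (27.3%) against 4.92%. It was also in 12.8% of the noncoding-summit regions with a glucose peak and 6.53% of those of Wilmar-P alone. Of the coding-summit shared regions, 10.6% held it. These words were chosen after the sequences had been seen and were not tested.

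Genes of known pathways were looked up by their starts and by summits inside them. Of 170 genes in 14 lists on carbon use, stress, iron, flocculation, mating and transport, 5 had a start nearest to a member summit and within 1000 bp (2.94%), against 85 of all 5113 protein-coding genes (1.66%). They were gpd3 (glyceraldehyde 3-phosphate dehydrogenase), hxk2, ctt1, sod1 (superoxide dismutase) and esc1, a basic helix-loop-helix factor. A summit between the ends of the gene was counted for 13 of the 170 (7.65%), against 117 of all genes (2.29%). These 13 were hxk2, pfk1, sod1, ght2, str2, pcl1, gsf2, pfl2, pfl3, pfl5, bfr1, pmd1 and amt1, and the summit in str2 also lay in the coding exon of rpl6.

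No gene of the lists on sucrose and maltose use, glucose repression, the cAMP pathway, the Sty1 stress pathway or cell separation was counted in either way. Of the 8 hexose transporter genes, ght2 alone was, with a coding summit and values of 1.93 and 1.87 in Wilmar-P and 1.64 and 1.86 in laboratory cells. The esc1 region was 89 bp upstream of its gene, with 6.80 and 5.38 in Wilmar-P and 1.92 and 2.04 in laboratory cells. Its laboratory summits were 1 and 35 bp from the Wilmar-P summit, at ranks 1402 and 1160. The region named for frp1 had 2.89 and 2.42 in Wilmar-P. In laboratory cells it had 1.42 and 1.35, at ranks 3776 and 4415. The paper reports esc1 and frp1 as bound by Scr1 in molasses in Wilmar-P only. Its peaks were filtered by agreement between replicates, and the lists used here were not. The gpd3 region had 6.57 and 5.36 in Wilmar-P and 1.88 and 1.71 in laboratory cells, but the laboratory summits were 807 and 988 bp away, inside the gene.

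At the edges of the rule, the smallest overlap with a laboratory peak was 23 bp, in the region named for lrs1 (2.44 and 1.71 in Wilmar-P, 1.98 and 1.69 in laboratory cells). The smallest gap to a glucose peak was 158 bp, in SPAC25B8.12C, with 3.54 and 2.62 in Wilmar-P and 1.84 and 1.70 in laboratory cells. Just outside, a region in tkt1 overlapped a glucose peak by 1 bp, with 2.32 and 1.72 in Wilmar-P, 1.95 and 2.27 in laboratory cells and 2.92 in glucose replicate 1. A region in dad5 was 37 bp from a laboratory peak, with 4.38 and 4.08 in Wilmar-P. In all, 31 members lay within 1000 bp of a glucose peak, and the median gap was 9118 bp.

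The regions were spread over the genome, with 61 on chromosome I, 56 on chromosome II and 40 on chromosome III, or 10.9, 12.3 and 16.3 per megabase. In 21 of the 157, the summit window held a 50-base stretch with a copy elsewhere in the genome. Besides the flocculation genes these included ubi4, eft201, eft202, 3 regions in tlh1, a subtelomeric helicase gene, that share 1 laboratory peak in each list, and 2 regions at the tlh1 and tlh2 ends. Reads there cannot be assigned to 1 copy with certainty. The irreproducible discovery rate (IDR), which models how well ranks agree between replicates, was at most 0.05 in both strains for 26 of the 44 noncoding-summit and 19 of the 113 coding-summit regions. Within each strain it was at most 0.05 for 666 of the 851 Wilmar-P regions and 621 of the 3485 laboratory regions.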

How the data were processed

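ChIP-seq of tagged Scr1 was analysed in 6 of the 15 samples, 2 replicates in each of 3 groups taken from the labels. The other samples (inputs and RNA polymerase II) were left out. Per the processing notes the authors used cutadapt 1.9.1, Bowtie2 2.3.1 and MACS2 2.1.1 on build ASM294v2, and called peaks in each replicate against an input. The deposited lists give each peak's fold enrichment (a ratio), its −log10 p and −log10 q, a score (not used) and a summit offset, and fold enrichment and −log10 p were used to describe and rank peaks. They hold no read numbers, so depth is unknown, and intervals cover counting error only. Peaks on chromosomes I, II and III were used, and peaks on 2 other sequences were left out.

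Sequence and annotation were RefSeq ASM294v3. Chromosome III is 2452883 bp long in it, which is also the highest peak end there, and no peak ran past a chromosome end. The members and gene lists were chosen with earlier results of these data known. The strongest peak by p stood for a region. Regions were named by the nearest protein-coding start. Values were named for the 15 members with the best mean rank, the 5 at each extreme of rank difference between strains, members near listed genes and regions at the edges of the rule; other genes named, in coding exons or as motif examples, were chosen after their values were seen. Shares of regions were compared by two-sided Fisher's exact tests with Benjamini-Hochberg adjustment (scipy 1.17.1, statsmodels 0.14.6), over 2 tests for position and 12 for motifs. IDR was refitted by maximum likelihood with an own implementation. Merging, tests and IDR were tested on simulated data. Alternatives covered overlap, enrichment, q, IDR, distance and window limits and each list left out.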

Additional observations from a re-analysis of the deposited data

How the results depend on the processing

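The number of shared regions rested most on the laboratory threshold and on Wilmar-P molasses replicate 1. Against 157 regions, 23 met the rule with laboratory peaks of at least 2.5-fold and 46 met an IDR of at most 0.05 in both strains. Leaving out 1 list gave 165 to 311, with 311 without Wilmar-P molasses replicate 1. The share with close laboratory summits (40.1%) was 26.1% within 50 bp, 53.5% within 200 bp and 35.9% to 50% with 1 list left out. The upstream difference was −42.1 points (regions with a glucose peak) and −47.5 points (Wilmar-P alone), and it kept its direction in every alternative. The rule itself favoured that direction, and the comparison with Wilmar-P alone cannot tell gene position from the rule. With the 2.5-fold laboratory limit the upstream difference was −20.0 and −12.5 points in the same order, past neither threshold. Above the middle of the Wilmar-P ranking, an unplanned alternative with 29 shared regions, it was −21.9 and −22.3 points (Fisher's exact tests, adjusted p = 0.037 for both).

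The SYGGGG difference from regions with a glucose peak (−19.9 points) no longer passed at −10.2 with the 2.5-fold limit, −15.7 above and −13.4 below the middle of the Wilmar-P ranking, and −9.60 outside coding exons. Against Wilmar-P alone (−5.45) it turned to 5.72, 0.157 and 5.40 with the 2.5-fold limit, above the middle and outside coding exons. In that comparison GAGGGG turned to −0.0350 (50 bp), −2.82 (2.5-fold limit) and −0.568 (outside coding exons), TGACGT to 0.221, 8.15 and 2.56 (2.5-fold limit, above the middle, outside coding exons), and CCAAT to −3.38 (above the middle), none past the threshold. The causes were not tested. The list genes numbered 5 within 1000 bp, 10 within 1500 bp and 16 with summits in genes counted, the last chosen after seeing the data. No paired analysis was possible because no test compared samples, and each group held 2 peak lists. Read depth is unknown, so weak peaks cannot be told apart from missed ones by depth.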
